A study of Mus musculus with 31 samples.

Results

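10 nuclear genes whose products copy, transcribe or shape mitochondria were followed through 31 RNA-seq libraries of mouse liver and skeletal muscle. They are 10 of the 35275 gene IDs in the counts of an insulin experiment and 10 of the 54532 gene IDs in the counts of a second experiment on a mutant ERRα. The 10 genes were picked by name, with earlier results of these data known. Tfam, Tfb2m and Polg act on mitochondrial DNA (mtDNA), and Tfb1m acts on the ribosomal RNA made from it. Nrf1 and Gabpa are nuclear regulators, and Mfn1, Mfn2, Opa1 and Dnm1l fuse and divide mitochondria. All 10 were found in both sets of counts by matching Ensembl IDs to GENCODE symbols, and all 10 passed the filter on low counts in each of the 9 comparisons made.

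The study asked how insulin acts on gene expression through ERRα, the nuclear receptor encoded by Esrra. In the insulin experiment, WT mice and mice lacking ERRα in the whole body (ERRα KO), all C57BL/6N, were fasted for 12 h overnight, injected in the peritoneum with saline or with insulin at 1 unit per kg, and their livers were taken 4 h later. In the other experiment, liver and skeletal muscle (gastrocnemius and soleus) came from untreated WT and homozygous ERRα3SA littermates, whose Esrra gene carries 3 serine-to-alanine changes made by CRISPR/Cas9 on a C57BL/6N background. Male mice of 2 to 3 months on a standard diet were used unless stated otherwise. The groups held 4 mice each, apart from ERRα KO given insulin with 3 (replicates 1, 2 and 4), and nothing states whether a liver and a muscle came from the same animal.

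Mitochondria carry a small genome of their own, but the proteins that copy and transcribe it are made from nuclear genes. The transcription factors NRF1 and GABPA drive many of these nuclear genes, and the PGC-1 coactivators with ERRα are known to raise mitochondrial content in muscle, heart and brown fat. Mitochondria also fuse and divide: mitofusins join outer membranes, OPA1 joins inner membranes, and DRP1, the product of Dnm1l, cuts them apart.

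The genotype labels were read against Esrra itself. Its counts were 1246, 1866, 1870 and 1753 in the WT livers given saline and 2021, 3400, 2345 and 2487 in the WT livers given insulin. In the ERRα KO livers they were 62, 29, 53 and 47 after saline and 32, 21 and 11 after insulin, so no KO liver came near a WT liver. In CPM (TMM-normalised counts scaled to library size), the WT livers held 32.3, 51.3, 42.7 and 40.5 of Esrra after saline and 53.7, 96.5, 56.1 and 59.0 after insulin. Replicate 2 of the insulin group stood far above the other 3, and every insulin liver lay above every saline liver. The log2 fold change of Esrra with insulin in WT liver was 0.67 (SE 0.21, unadjusted p = 0.00754). Its adjusted p was 0.122 from edgeR's quasi-likelihood test after Benjamini-Hochberg adjustment. The ERRα3SA mice carry an Esrra transcript, at 29.4, 25.4, 21.1 and 19.2 CPM in their livers against 27.7, 27.1, 28.2 and 29.5 in WT livers. Their muscles held 24.3, 133, 127 and 94.6 CPM against 90.25, 82.7, 67.0 and 78.1 in WT muscles. Replicate 1 of the ERRα3SA muscles, with 24.3 CPM, was far below the other 7 muscles.

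Tissue labels were read against markers. The 6 hepatocyte markers summed to between 65813 and 110209 CPM in the livers, with albumin the most abundant, and to between 8.09 and 18.7 CPM in the muscles. The 6 muscle fibre markers summed to between 80188 and 179301 CPM in the muscles and reached 105 CPM at most in a liver, WT with insulin replicate 3. These are whole tissues, so fewer cells of a type and less RNA per cell cannot be told apart in any value given here.

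Total counts ran from 35871419 to 48317108 per library in the insulin experiment and from 20481405 to 33412022 in the ERRα3SA experiment. The 10 genes were counted from 180 to 8266 times in a library of the former and from 102 to 22282 times in a library of the latter, where Tfb1m and Nrf1 had the fewest counts. A few libraries stood apart. Replicate 1 of the ERRα3SA muscles had 19.3% of its counts on genes of the mitochondrial genome against 9.15 to 9.85% in the other 3 of its group, and 33.3% of its counts on its top 10 genes. Its muscle fibre markers summed to 179301 CPM, led by the fast myosin Myh4 at 104328 CPM, against 80188 to 107810 CPM in its group. Of the 10 genes, 5 (Dnm1l, Gabpa, Opa1, Polg and Tfb2m) lay more than 0.5 log2 units from their group median in it.

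Among the livers, WT with insulin replicate 2 had the smallest mitochondrial share, 1.88% against 3.88 to 4.17% in the other 3 of its group, and the fewest genes with counts, 14507. Its Gabpa level, 25.4 CPM, was also the lowest of the 15 livers. In WT with insulin replicate 1 it was Tfam that was low, at 28.8 CPM against 46.9 to 51.4, and in ERRα KO with saline replicate 1 it was Tfb2m, at 13.1 CPM against 18.6 to 21.6. The mitochondrial share also moved with genotype in the insulin experiment, with a median of 4.40% in WT and 3.19% in ERRα KO livers given saline, though the 2 groups overlapped. In the other experiment, ERRα3SA liver replicate 4 had the fewest total counts, 20481405, and the lowest sum of hepatocyte markers of all livers, 65813 CPM.

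**Figure D1:**
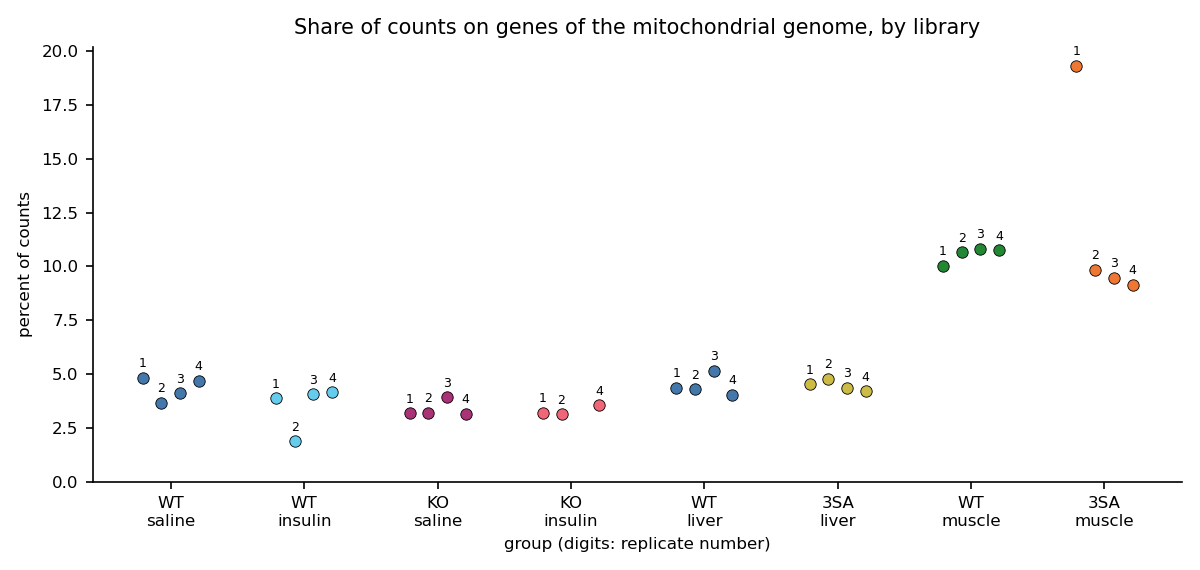
Percent of each library's counts that fall on genes of the mitochondrial genome (y axis), for the 8 groups (x axis); each point is 1 library and the digit is its replicate number. Replicate 1 of the ERRα3SA muscles stands at 19.3% and replicate 2 of the WT livers given insulin at 1.88%.

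Because ERRα, NRF1 and GABPA are all DNA-binding regulators, the promoters of the 10 genes were searched for letters that these factors are known to favour. RefSeq (build GRCm38.p6) gave 14 promoters for the 10 genes among 32851 in all, each with 250 bases before and 50 after the start. The searched motifs, on both strands, were the ERR element TCAAGGTCA and its core AAGGTCA, which lies within it, the NRF1 core GCGCATGC, the ETS element of GABPA, CCGGAAGT, and the YY1 element AAGATGGCG. The ERR element was found in none of the 14 promoters and in 0.423% of all promoters, and the core likewise in none and in 4.72% of all. An ETS element was in the promoters of Tfam, Polg and Mfn1 (3 of 14 promoters, beside 3.89% of all), an NRF1 core in those of Opa1 and Tfb2m (2 of 14, beside 2.71%), and a YY1 element in that of Gabpa (1 of 14, beside 1.40%). A match is a description of letters, not a site, and no match says only that these letters are not in this window.

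The stretches shown are those of the 3 fusion genes that the liver and muscle results turn on, each outside any exon that GENCODE annotates; capitals mark the motif. They lie at chr3:32529232-32529464 on the plus strand for Mfn1, chr16:29579084-29579333 on the plus strand for Opa1, and chr4:147904910-147905159 on the minus strand for Mfn2. Mfn1 has its ETS element 44 to 37 bases before the start, and Opa1 has 2 NRF1 cores that overlap on opposite strands, 59 to 52 and 57 to 50 bases before the start. Of the 3 RefSeq promoters of Mfn2, the one whose 250 bases before the start all lie outside annotated exons is shown, and it holds none of the 5 motifs.
Mfn1: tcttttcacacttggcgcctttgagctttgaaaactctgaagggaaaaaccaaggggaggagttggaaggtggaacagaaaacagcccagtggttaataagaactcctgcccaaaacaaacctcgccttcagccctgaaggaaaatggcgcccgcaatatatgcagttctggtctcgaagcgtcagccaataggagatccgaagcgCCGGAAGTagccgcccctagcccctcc
Opa1: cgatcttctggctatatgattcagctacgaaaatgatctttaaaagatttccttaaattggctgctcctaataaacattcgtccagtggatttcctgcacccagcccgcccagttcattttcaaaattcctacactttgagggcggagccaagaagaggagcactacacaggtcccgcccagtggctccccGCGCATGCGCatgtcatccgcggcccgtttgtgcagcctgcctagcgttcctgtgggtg
Mfn2: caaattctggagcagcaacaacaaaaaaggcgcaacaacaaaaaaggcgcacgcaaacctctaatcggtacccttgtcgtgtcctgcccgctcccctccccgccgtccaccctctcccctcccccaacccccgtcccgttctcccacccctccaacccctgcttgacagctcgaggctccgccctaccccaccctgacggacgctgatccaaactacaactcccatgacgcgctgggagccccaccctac

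In the other 3 genes with a motif before the start, the letters lie inside an exon that GENCODE annotates, so 30 bases around each are shown. They come from chr10:71238073-71238102 on the minus strand for Tfam, chr7:79466293-79466322 on the minus strand for Polg, and chr16:84835046-84835075 on the plus strand for Gabpa. Tfam and Polg share with Mfn1 the letters CCGGAAGT on the strand of the gene, and Gabpa carries the YY1 letters on the opposite strand, so they read CGCCATCTT here.
Tfam: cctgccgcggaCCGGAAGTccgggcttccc
Polg: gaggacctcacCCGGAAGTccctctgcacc
Gabpa: gctaagactcCGCCATCTTtcctacacttt

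Level per length, in CPM per kb of exons, sets the 10 genes in order within a tissue. In the livers of WT mice given saline, Mfn2 led with 36.1 ± 4.73 CPM per kb (SD, n = 4), followed by the 2 other fusion genes, Opa1 at 15.1 ± 0.167 and Mfn1 at 12.5 ± 0.901. Tfam (10.02 ± 0.946), Dnm1l (9.68 ± 0.803), Gabpa (8.85 ± 0.315) and Tfb2m (7.80 ± 0.633) came next, and in that order each overlapped its neighbour. Polg followed at 5.07 ± 0.379 CPM per kb. At the bottom stood Tfb1m, the methyltransferase of mitochondrial ribosomal RNA, at 1.89 ± 0.206, and the regulator Nrf1 at 1.08 ± 0.0713, with no overlap between them or with Polg. Divided by the length of the longest transcript in place of all exons, Tfb1m (2.82) and Nrf1 (2.75) overlapped.

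The first comparison asks whether insulin changed these genes in the fasted liver of WT mice. It did not move any of the 10 past the threshold of the study, which asks for a fold of 1.2 or more together with an unadjusted p under 0.05 and is what "called" means here. The 4 saline and the 4 insulin values of each gene overlapped, while over all genes the groups did not overlap for 11.7% of 14670. Tfam, which packages mtDNA and starts its transcription, had 43.5, 42.6, 50.6 and 41.1 CPM after saline and 28.8, 46.9, 51.4 and 49.5 CPM after insulin. Of the insulin values, 3 lie within or just above the saline range and replicate 1 lies far below it. Polg, the catalytic subunit of the mtDNA polymerase, had 49.5, 52.7, 57.9 and 57.7 CPM after saline and 53.3, 43.9, 48.3 and 42.6 CPM after insulin, so 3 of the 4 insulin livers lay under every saline liver.

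Of the 10 genes, 0 were called by edgeR's quasi-likelihood test in WT liver, where 17.2% of the 13463 genes tested were; 0 had an unadjusted p under 0.05 and DESeq2 called 0. Their median log2 fold change was -0.08, beside 0.00 over all genes tested, and single values ran from -0.26 for Gabpa to 0.18 for Mfn1. The Gabpa value was -0.08 without WT with insulin replicate 2 and -0.41 without replicate 3. Polg stood at -0.21, Tfb1m at 0.12, Mfn2 at -0.12, Opa1 at -0.11, Tfb2m and Nrf1 at -0.08, Dnm1l at 0.07 and Tfam at -0.01. Such values of genes that were not called can change sign with 1 library, and no direction is read from them here or in the other comparisons. Leaving out WT with insulin replicate 1 brought Polg past the threshold (log2 fold change -0.28, edgeR unadjusted p = 0.0429), while leaving out replicate 2 left the count at 0. In the wider lists of 93 genes for mtDNA upkeep, mitochondrial transcription, membrane shape and upstream regulation, 17 of 90 tested genes were called, 14 higher and 3 lower, or 10 without WT with saline replicate 4, while of all genes 1123 were called higher and 1199 lower. Among them Mff, the outer-membrane receptor that draws DRP1 to sites of fission, rose by 0.44 log2 units, and Ppargc1a, which encodes the coactivator PGC-1α, by 1.22, or by 0.80 without WT with insulin replicate 1. The mitochondrial RNA-binding gene Fastkd2 rose by 0.52 and the ubiquitin ligase gene Mul1 by 0.43. Adjusted p of Fastkd2, Mff, Ppargc1a and Mul1 were 0.0809, 0.0844, 0.0897 and 0.111 from edgeR's quasi-likelihood test after Benjamini-Hochberg adjustment. Inf2, a formin that builds actin at fission sites, fell by 0.98 log2 units, with an adjusted p of 0.0307 from edgeR's quasi-likelihood test after Benjamini-Hochberg adjustment.

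The same question in ERRα KO liver turned on Mfn1, the mitofusin that tethers outer membranes of neighbouring mitochondria. Its values were 66.6, 71.4, 67.7 and 63.4 CPM after saline and 84.6, 90.0 and 70.7 CPM after insulin. Replicates 1 and 2 of the insulin group lay above every saline liver, and replicate 4, at 70.7, lay within the saline range. Mfn1 was called higher with insulin (log2 fold change 0.28, SE 0.11, unadjusted p = 0.0265), with an adjusted p of 0.207 from edgeR's quasi-likelihood test after Benjamini-Hochberg adjustment. In WT liver the same gene had 79.5, 82.1, 70.2 and 73.3 CPM after saline and 84.6, 98.4, 81.8 and 79.7 CPM after insulin, a log2 fold change of 0.18 (SE 0.12) that was not called and was 0.11 without replicate 2 of the insulin group. The Mfn1 effect was not shown to differ between genotypes: the interaction was 0.11 log2 units (SE 0.15, edgeR unadjusted p = 0.499) and ran from 0.03 to 0.20 when 1 library was left out.

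Tfam in ERRα KO liver had 42.6, 49.4, 44.6 and 49.4 CPM after saline and 37.8, 36.6 and 43.3 CPM after insulin. Replicates 1 and 2 of the insulin group lay under every saline liver, and replicate 4 lay just above the lowest of them. Its log2 fold change of -0.25 (SE 0.11, edgeR unadjusted p = 0.0435) stayed short of the fold threshold, so Tfam was not called. Dnm1l, whose product pinches mitochondria apart, had 51.7, 43.9, 41.5 and 35.5 CPM after saline and 51.9, 56.2 and 45.6 CPM after insulin, and it too was not called (0.24, SE 0.14, or 0.16 without KO with saline replicate 4).

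Mfn1 was thus 1 of 10 genes called in ERRα KO liver, against 17.2% of all 13684 genes tested, or 8.05% called higher, and DESeq2 called 1 as well. The 10 genes had a median log2 fold change of 0.10 beside -0.02 over all genes, with Gabpa at -0.19, Polg at -0.18, Mfn2 at 0.14, Tfb2m at 0.12, Opa1 at 0.11, Tfb1m at 0.08 and Nrf1 at -0.02, none of them called. The Mfn1 call was lost without KO with saline replicate 4 (0.25 log2 units), KO with insulin replicate 1 (0.25) or replicate 2 (0.20), and when libraries were scaled by total counts alone (0.21). Tfam was called lower without KO with saline replicate 1 (-0.29) or 3 (-0.27), without KO with insulin replicate 4 (-0.32), and with total counts alone (-0.32); Dnm1l was called higher without KO with saline replicate 1 (0.34). Of the wider lists, 9 of 89 genes were called, 3 higher and 6 lower, or 15 without KO with saline replicate 3. Mtfp1, which promotes fission, fell by 0.74 log2 units, the transcription factor gene Mterf2 by 1.11, and Dguok, which supplies deoxynucleotides for mtDNA, by 0.47, the last without a call when all 4 groups were fitted at once (-0.47, edgeR unadjusted p = 0.0514). Inf2 fell by 0.93 log2 units here and Tfeb, a regulator of lysosomal and mitochondrial turnover, by 0.95. Their adjusted p were 0.0273 and 0.0375 from edgeR's quasi-likelihood test after Benjamini-Hochberg adjustment. Adjusted p of Mtfp1, Mterf2 and Dguok were 0.0618, 0.105 and 0.149 from the same edgeR test.

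The sum of the adipocyte markers, a reading of Cidec more than of the set, was higher with insulin in WT livers. The 6 adipocyte markers summed to 33.02, 50.1, 18.2 and 14.1 CPM in WT livers given saline and 107, 58.0, 75.9 and 92.8 CPM in those given insulin, nearly all of it Cidec, which coats lipid droplets. In ERRα KO livers the sums were 74.1, 31.2, 31.9 and 47.4 CPM after saline and 58.1, 73.9 and 72.5 CPM after insulin. Each KO sum after insulin lay within the range after saline. Leptin (Lep) was at 0 in 12 of the 15 livers, and the part of these markers in the results above was not tested.

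Loss of ERRα in the fasted liver went with less Mfn2, which encodes the mitofusin that also links mitochondria to the endoplasmic reticulum. After saline the WT livers had 174, 221, 165 and 191 CPM of Mfn2 (mean 188 ± 24.6, SD, n = 4) and the ERRα KO livers 146, 154, 96.0 and 133 CPM (mean 132 ± 25.8, n = 4). All 4 KO livers lay below all 4 WT livers, and KO replicate 3 was the lowest. Mfn2 fell by 0.50 log2 units (SE 0.15, unadjusted p = 0.00725), with an adjusted p of 0.239 from edgeR's quasi-likelihood test after Benjamini-Hochberg adjustment. This call held in each alternative setting tried and without any 1 library.

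Opa1, whose product fuses inner membranes and keeps cristae narrow, was the other gene whose groups did not overlap. It had 117, 118, 119 and 120 CPM in the WT livers given saline and 96.7, 104, 103 and 94.3 CPM in the ERRα KO livers. The WT values were nearly alike and each KO value was lower, with a log2 fold change of -0.25 (SE 0.09, edgeR unadjusted p = 0.0135) and a fold below 1.2, so that Opa1 was not called. Opa1 was called lower when libraries were scaled by total counts alone (-0.28) and without KO with saline replicate 2 (-0.28) or 3 (-0.27). Mfn1 (-0.18, SE 0.09) and Dnm1l (-0.22, SE 0.12) were not called. Without KO with saline replicate 1, Dnm1l was called lower (-0.32, edgeR unadjusted p = 0.0208). It stood at -0.14 without KO with saline replicate 4.

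The genes of mtDNA and its RNA (Tfam, Tfb1m, Tfb2m and Polg) and the 2 regulators showed no call in this comparison. Their log2 fold changes lay between -0.23 for Tfb2m, which pairs with the mitochondrial RNA polymerase, and 0.06 for Tfam, and the Tfb2m value was -0.10 without KO with saline replicate 1, the library with 13.1 CPM. Nrf1 stood at 0.05, Tfb1m at 0.04, Polg at 0.01 and Gabpa at -0.03. Nrf1 had 12.1, 11.2, 10.4 and 10.7 CPM in WT and 10.8, 11.1, 12.9 and 11 CPM in KO livers, and Gabpa had 50.8, 49.8, 52.5 and 48.2 CPM in WT and 45.1, 48.7, 56.2 and 47.8 CPM in KO livers. For both regulators the WT and KO values overlapped.

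In the count, 1 of the 10 genes was called after saline, against 11.3% of the 13481 genes tested and 5.3% called lower, and DESeq2 called 1. Groups did not overlap for 2 of the 10, Mfn2 and Opa1, and for 6.78% of 14670 genes. The 10 genes had a median log2 fold change of -0.10, beside 0.00 over all genes tested. The mitochondrial share of counts moved with genotype too, at 4.82, 3.68, 4.10 and 4.70% in WT and 3.17, 3.21, 3.91 and 3.16% in KO livers given saline, and its part in these results was not tested; with the genes of the mitochondrial genome left out of the fit, the count was 1 as before.

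Genes that work beside Mfn2 and Opa1 were lower more often than higher in ERRα KO liver. The wider lists were chosen with earlier results of these data known, so their counts describe and do not test. Of 29 tested genes for fusion, fission and inner membrane shape, 7 were called lower and 1 higher after saline, with a median log2 fold change of -0.125, while of all 13481 genes 714 (5.3%) were called lower and 806 higher. Without KO with saline replicate 3 it was 4 lower and 0 higher, without WT with saline replicate 3 or 4 it was 5 and 0, and without WT with saline replicate 1 it was 5 and 1. Chchd3, a subunit of the MICOS complex that holds cristae junctions, fell by 0.50 log2 units (SE 0.10), and Mul1, an outer-membrane ubiquitin ligase, by 0.50 (SE 0.10). Across the wider lists 16 of 89 genes were called, 3 higher and 13 lower, among them Esrra, Mrpl12 of the mitochondrial ribosome, which fell by 0.50, and Fastkd1, a mitochondrial RNA-binding protein, by 0.65. Esrra apart, their adjusted p were 0.104 or more from edgeR's quasi-likelihood test after Benjamini-Hochberg adjustment.

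**Figure D2:**
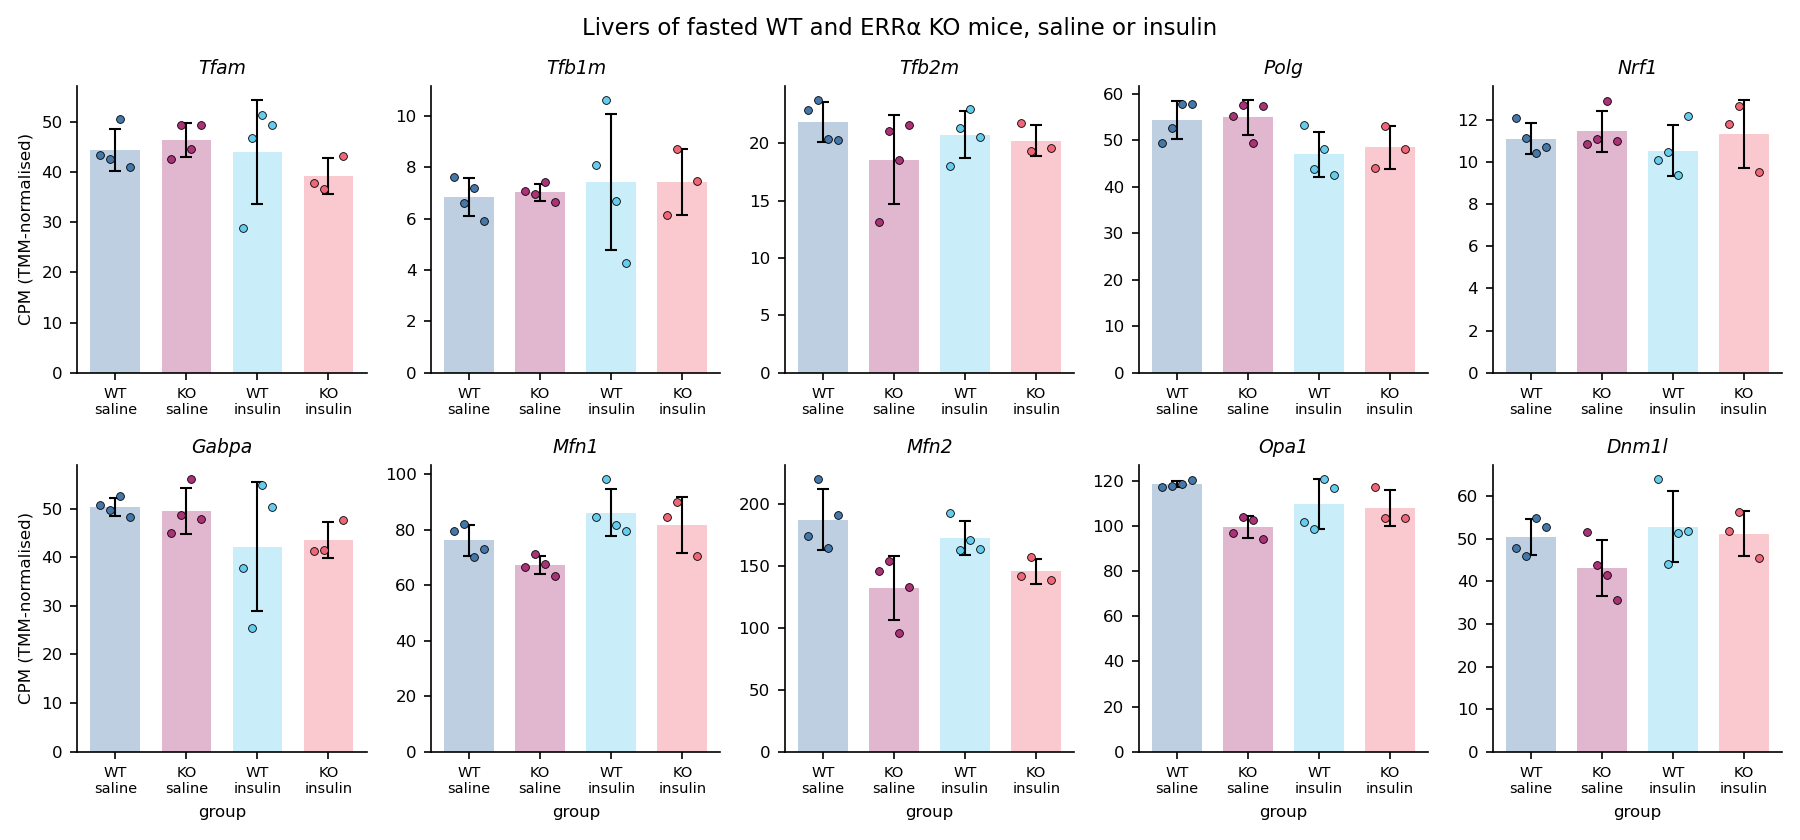
CPM of each of the 10 genes (y axes start at 0) in the 4 groups of livers of the insulin experiment (x axes); bars are means, error bars SD and points single livers, 4 a group and 3 for KO with insulin. For Mfn2 the KO livers given saline lie between 96.0 and 154 CPM and the WT livers between 165 and 221 CPM.

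After insulin, Mfn2 was not called between ERRα KO and WT livers. The values were 193, 163, 171 and 164 CPM in WT and 142, 157 and 139 CPM in KO livers. All 3 KO livers lay below all 4 WT livers, the nearest being 157 against 163. The log2 fold change was -0.25 (SE 0.12, edgeR unadjusted p = 0.0666), and Mfn2 was called without WT with insulin replicate 2 (-0.28) and with total counts alone (-0.34). Opa1 overlapped here, with 102, 98.5, 121 and 117 CPM in WT and 117, 103 and 103 CPM in KO livers.

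None of the other genes was called after insulin either: 0 of 10 by edgeR's quasi-likelihood test, against 9.99% of the 13665 genes tested and 5.42% called lower, with 0 at an unadjusted p under 0.05 and 0 by DESeq2. Groups did not overlap for 1 of the 10, Mfn2, and for 11.9% of all genes. The median log2 fold change was -0.04 beside -0.02 over all genes, with Nrf1 at 0.09, Mfn1 at -0.09, Dnm1l at -0.05, Tfb2m and Opa1 at -0.04 and -0.03, and Tfb1m at -0.01, while Gabpa (0.04) and Polg (0.03) turned negative with total counts alone (-0.06 and -0.05). Tfam (-0.18) was called lower (-0.34, edgeR unadjusted p = 0.0235) only when WT with insulin replicate 1 was left out, the library in which Tfam stood low. The 29 genes for fusion, fission and inner membrane shape were, as above, listed with earlier results of these data known. Of them, 12 were called lower and 0 higher by edgeR (12 lower and 1 higher by DESeq2), with a median of -0.28. Without any 1 of the 3 KO livers given insulin, 7 of them were called lower, and 818 genes in all were called without replicate 2 in place of 1365. After insulin the 6 hepatocyte markers summed to 106111, 107218 and 102491 CPM in KO livers and 87882, 96740, 82864 and 92704 CPM in WT livers, with albumin the most abundant and none at 0, so every KO liver lay above every WT liver. The mitochondrial share was 3.21, 3.14 and 3.54% in KO livers and 3.88, 1.88, 4.05 and 4.17% in WT livers, and the part of either in the change of these genes was not tested.

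Mul1 fell by 0.73 log2 units (SE 0.14), Chchd3 by 0.68 (SE 0.15) and the prohibitin gene Phb, whose protein scaffolds the inner membrane, by 0.53 (SE 0.13). Tbrg4, which acts on mitochondrial RNA, fell by 0.58 log2 units (SE 0.15). Adjusted p for these 4 genes lay between 0.163 and 0.207 from edgeR's quasi-likelihood test after Benjamini-Hochberg adjustment. In all, 20 of 90 genes of the wider lists were called, 1 higher and 19 lower, beside 9.99% of all genes called and 5.42% called lower. Esrra, the deleted gene, is among the 19. The count of 20 became 11 without KO with insulin replicate 1 and 12 without replicate 4.

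Whether genotype changed the response to insulin was tested as an interaction over the 4 groups, which share their samples with the comparisons above. For Mfn2 the interaction was 0.26 log2 units (SE 0.20, edgeR unadjusted p = 0.216) and for Opa1 0.23 (SE 0.14, edgeR unadjusted p = 0.111). The Mfn2 value was 0.13 without KO with saline replicate 3 and 0.17 without WT with saline replicate 2. The genotype difference in Mfn2 was thus not shown to depend on insulin, and a p that misses the threshold does not show that it is the same in both states. Of the 10 genes 0 were called, against 8.79% of the 14670 genes tested, with 0 at an unadjusted p under 0.05 by edgeR and 0 called by DESeq2; the median was 0.09 beside -0.02 over all genes. Tfb2m stood at 0.20, Dnm1l at 0.18, Mfn1 at 0.11 and Tfb1m at -0.04, while Gabpa (0.07), Nrf1 (0.06) and Polg (0.03) turned negative with total counts alone. Tfam (-0.23) was called (-0.39, edgeR unadjusted p = 0.0228) without WT with insulin replicate 1. In the wider lists 3 of 91 genes were called, beside 8.79% of all genes: the prohibitin gene Phb2 (-0.41), Mtfp1 (-0.81) and Esrra, which is the deleted gene, with 11 to 62 counts in KO livers, so that its value says nothing of a response there. The adjusted p of Phb2 and Mtfp1 were 0.515 and 0.519 from edgeR's quasi-likelihood test after Benjamini-Hochberg adjustment. That count was 6 without KO with saline replicate 3 or WT with insulin replicate 1 or 2, and 5 without KO with saline replicate 1, WT with saline replicate 3 or KO with insulin replicate 1 or 2; Mtfp1 lost its call without KO with insulin replicate 2 (-0.69) or WT with insulin replicate 3 (-0.65).

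**Figure D3:**
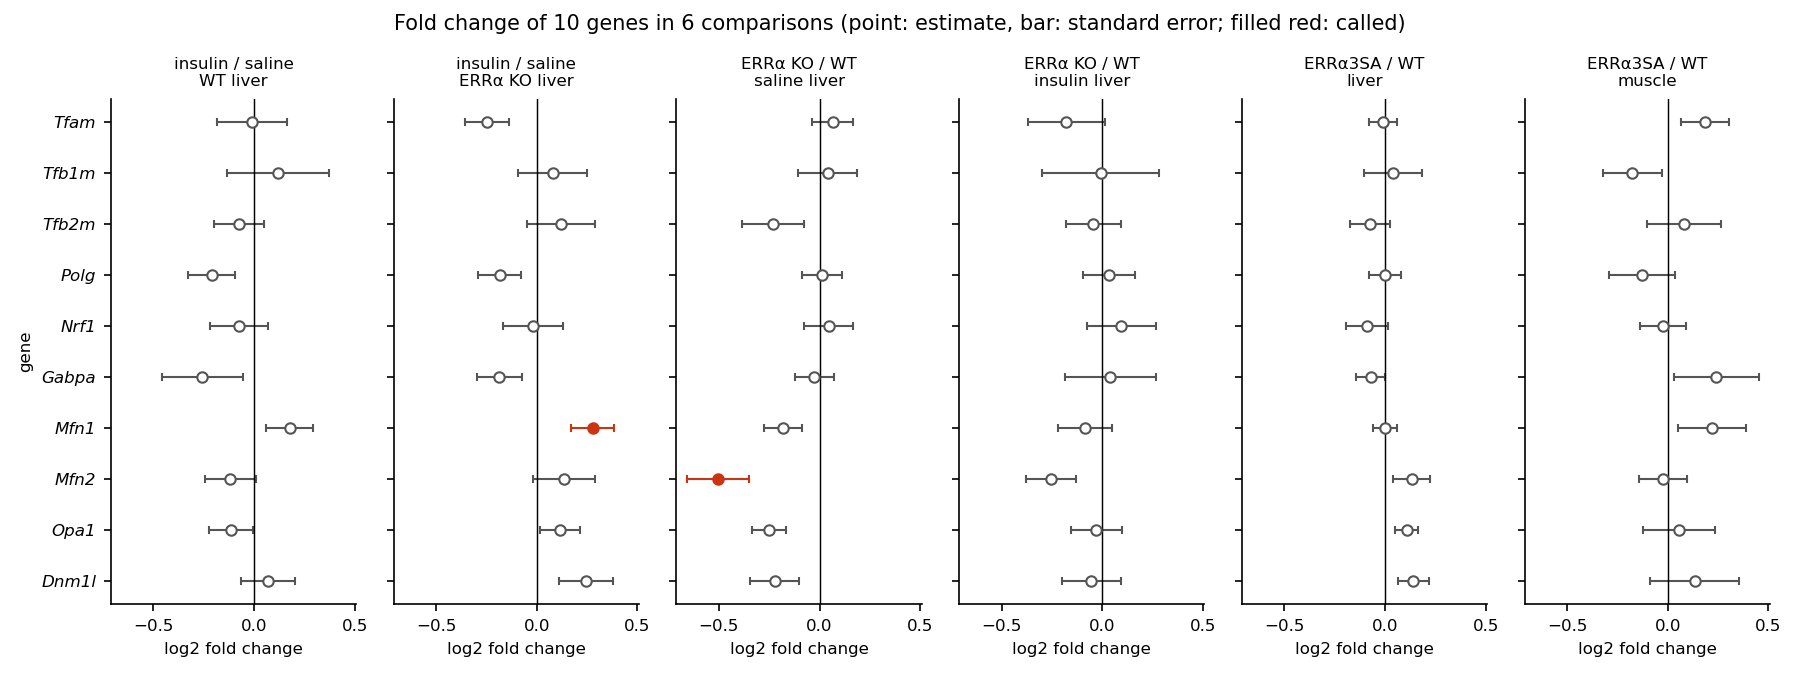
Log2 fold change (x axes) of the 10 genes (y axis) in 6 comparisons; points are edgeR estimates, bars their standard errors, and filled red points the called genes. Mfn2 in KO against WT liver after saline (-0.50) and Mfn1 with insulin in KO liver (0.28) are the 2 called values.

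The ERRα3SA mutation, which removes sites of phosphorylation from the receptor, was compared with WT first in liver. Log2 fold changes of the 10 genes ran from -0.09 for Nrf1 to 0.14 for Dnm1l, of which the former was -0.15 without WT liver replicate 2 and -0.04 without ERRα3SA liver replicate 3, and the latter was 0.07 without ERRα3SA liver replicate 4. Tfb2m stood at -0.08, Gabpa at -0.07, Tfb1m at 0.04 (-0.11 without ERRα3SA liver replicate 4) and Tfam at -0.01, and Polg and Mfn1 within 0.01 of 0. Opa1 had 122, 120, 120 and 117 CPM in WT and 128, 129, 133 and 126 CPM in ERRα3SA livers. All 4 mutant livers lay above all 4 WT livers, by a small step, and the gene was not called (log2 fold change 0.11, SE 0.06, edgeR unadjusted p = 0.084). Mfn2 had 146, 134, 149 and 131 CPM in WT and 155, 151, 175 and 132 CPM in mutant livers, which overlap (0.13, SE 0.09, or 0.06 without ERRα3SA liver replicate 3).

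By edgeR's quasi-likelihood test 0 of the 10 genes were called in ERRα3SA liver, against 4.88% of the 13339 genes tested; 0 had an unadjusted p under 0.05, against 1 by DESeq2 (Opa1, 0.11 log2 units), which called 0. Without ERRα3SA liver replicate 4, 2 had an unadjusted p under 0.05 by edgeR, Mfn2 (0.20) and Opa1 (0.12), and 0 were called. Groups did not overlap for 1 of the 10, Opa1, and for 4.54% of 15688 genes. The medians were 0.00 for the 10 genes and for all genes. In the wider lists Chchd6, a MICOS subunit, was the 1 gene of 91 called, 0.58 log2 units higher (SE 0.21). Its adjusted p was 0.629 from edgeR's quasi-likelihood test after Benjamini-Hochberg adjustment. Chchd6 lost the call without ERRα3SA liver replicate 3 (0.47, edgeR unadjusted p = 0.0585). Replicate 4 of the ERRα3SA livers stood apart, with hepatocyte markers at 65813 CPM and albumin at 39835 CPM, against 93496 to 106876 and 67899 to 79928 CPM in the other 3, and the part of this was not tested. The count of 1 became 6 without that library, 4 without ERRα3SA liver replicate 1, and 2 without replicates 2 or 3 of that group or WT liver replicates 2 or 3.

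In skeletal muscle several ERRα3SA values moved with single libraries, replicates 1 and 4 of the mutant group above all. Dnm1l had 84.5, 91.1, 91.3 and 96.4 CPM in WT muscles and 154, 80.9, 81.5 and 74.6 CPM in ERRα3SA muscles. Replicate 1 lay far above, and the other 3 mutant muscles lay below, every WT muscle. Gabpa had 40.6, 39.2, 40.5 and 42.9 CPM in WT and 73.4, 39.9, 39.1 and 37.2 CPM in mutant muscles, with replicate 1 again far above, 1 mutant muscle within the WT range and 2 below it. Opa1 had 155, 172, 165 and 166 CPM in WT and 235, 149, 165 and 124 CPM in mutant muscles, where replicate 1 was the highest and replicate 4 the lowest of all 8.

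Neither mitofusin gene was called in these muscles. Mfn1 had 233, 241, 238 and 258 CPM in WT and 370, 268, 271 and 202 CPM in ERRα3SA muscles, so that 3 mutant muscles lay above and 1 below every WT muscle. Mfn2 had 679, 694, 695 and 723 CPM in WT and 715, 709, 721 and 551 CPM in mutant muscles, of which the first 3 lie within the WT range and replicate 4 well below it. That replicate had the lowest sum of muscle fibre markers, 80188 CPM, and the highest sum of the 6 stellate cell and fibroblast markers, 3487 CPM against 1308 to 1836 CPM in the other 3, led by Col3a1. Its 6 macrophage markers summed to 57.8 CPM against 22.6 to 27.6 CPM, with Csf1r the most abundant and Clec4f at 0, and its 6 erythroid markers to 156 CPM against 77.5 to 104 CPM, led by Hbb-bs; the part of these 4 lists in the Mfn2 value was not tested.

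None of the 10 genes was called in ERRα3SA muscle: 0 by edgeR's quasi-likelihood test, against 4.54% of the 14081 genes tested, with 0 at an unadjusted p under 0.05 and 0 by DESeq2. Log2 fold changes ran from -0.18 for Tfb1m to 0.24 for Gabpa, with a median of 0.07 beside 0.02 over all genes. Without replicate 1, Gabpa stood at -0.04, Dnm1l at -0.17 (0.13 with it), Opa1 at -0.14 (0.06 with it), Tfb2m at -0.11 (0.08 with it), Polg at 0.02 (-0.13 with it) and Mfn1 at 0.06 (0.22 with it), so the first 5 changed sign. Mfn2 stood at -0.02, and at 0.06 without replicate 4, while Nrf1 (-0.02) was 0.01 without replicate 2. With total counts alone Opa1 (-0.05) and Tfb2m (-0.03) were also negative, and Tfam was at 0.18, or 0.11 without replicate 1. Without it 0 of the 10 were called and 2506 genes in all, in place of 639; that total was 378 without WT muscle replicate 3 and 397 without its replicate 4. Without replicate 4, Mfn1 was called higher (0.34, edgeR unadjusted p = 0.0375).

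Partner genes in muscle shifted with single libraries as well. Of the wider lists 7 of 90 genes were called, where 4.54% of all genes were. All 7 were higher, but with total counts alone 1 was called higher and 2 lower. The count became 18 (14 higher and 4 lower) without ERRα3SA muscle replicate 1, 3 without its replicates 2 or 3, and 2, 3, 3 and 4 without WT muscle replicates 1 to 4, with 1 of them lower without replicate 3. Adjusted p of the called genes named here lay between 0.903 and 0.9996 from edgeR's quasi-likelihood test after Benjamini-Hochberg adjustment. Samm50, of the outer-membrane assembly machinery, had a log2 fold change of 0.41 (SE 0.13). It lost the call with total counts alone (0.37, edgeR unadjusted p = 0.0874). Mrpl12 (0.65) lost it without WT muscle replicate 3 (0.60) or ERRα3SA muscle replicates 2 (0.59), 3 (0.56) or 4 (0.57). Twnk, the mtDNA helicase (0.27), lost it without WT muscle replicates 1 (0.25), 2 (0.26) or 3 (0.28) or ERRα3SA muscle replicates 1 (0.24) or 2 (0.25). Slirp, which stabilises mitochondrial RNA (0.85), lost it without WT muscle replicates 1 (0.87), 2 (0.79) or 3 (0.77) or ERRα3SA muscle replicates 3 (0.57) or 4 (0.76), and the corepressor gene Nrip1 (0.42) without WT muscle replicates 1 (0.38), 2 (0.44) or 4 (0.40) or ERRα3SA muscle replicate 1 (0.23). With total counts alone Mrpl12 (0.65), Twnk (0.20) and Slirp (0.83) were not called either, nor were Twnk with no filter on low counts (0.25) and Twnk (0.24) and Nrip1 (0.39) with all 4 groups fitted at once.

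**Figure D4:**
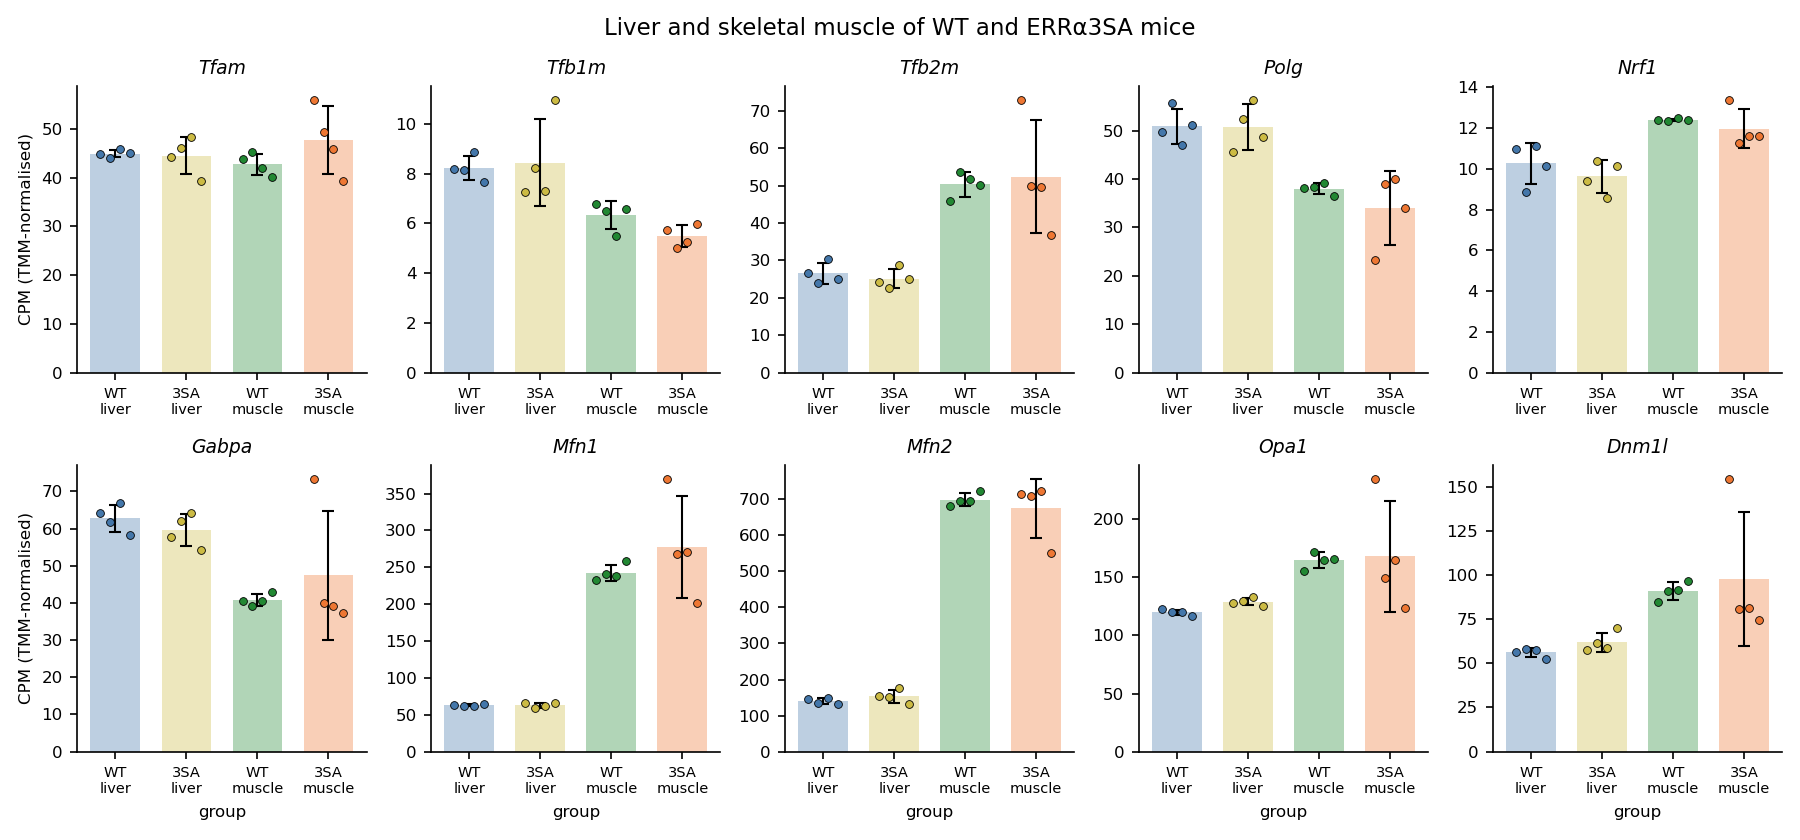
CPM of each of the 10 genes (y axes start at 0) in WT and ERRα3SA liver and muscle (x axes); bars are means, error bars SD and points single animals' tissues, 4 a group. Replicate 1 of the ERRα3SA muscles is the high point for Dnm1l (154 CPM) and Gabpa (73.4 CPM).

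The difference between the mutation's effect in muscle and in liver was tested as an interaction. For Gabpa it was 0.29 log2 units (SE 0.24, edgeR unadjusted p = 0.241) and for Tfb1m -0.24 (SE 0.20, edgeR unadjusted p = 0.253). Both moved with single libraries: Gabpa went to -0.0042 without ERRα3SA muscle replicate 1 and Tfb1m to -0.07 without ERRα3SA liver replicate 4. Of the 10 genes 0 were called by edgeR, against 5.57% of the 15688 genes tested, with 0 at an unadjusted p under 0.05 and 0 by DESeq2. Their median was 0.00, as over all genes. Mfn1 stood at 0.20, Mfn2 at -0.18, Tfam at 0.17, Polg at -0.15, Tfb2m at 0.13, Opa1 at -0.07, Nrf1 at 0.04 and Dnm1l at -0.03. The last 2 changed sign, Nrf1 with total counts alone and Dnm1l without the genes of the mitochondrial genome. With 1 library left out, Nrf1 ran from -0.02 to 0.10 and Dnm1l from -0.34 to 0.10. Tfb2m ran from -0.07 to 0.29 and Opa1 from -0.28 to 0.06, so their signs changed too. Leaving out ERRα3SA muscle replicate 1 brought 2 genes past the threshold, Dnm1l (-0.34) and Opa1 (-0.28), and 2766 genes in all in place of 874; leaving out its replicate 4 brought in Mfn1 (0.34).

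Of the wider lists 5 of 92 genes had a called difference between tissues: Mrpl12 (0.84), Slirp (1.10), Phb2 (0.47), Samm50 (0.52) and Mtfp1 (0.44). This is close to the 5.57% of all genes, and the adjusted p of the 5 lay between 0.771 and 0.887 from edgeR's quasi-likelihood test after Benjamini-Hochberg adjustment. That count ran from 1 without ERRα3SA muscle replicate 3 to 15 (4 of them negative) without its replicate 1, with 10 (1 negative) without its replicate 4, 2 without WT liver replicate 1 or WT muscle replicate 3, and 3 without WT liver replicate 4, WT muscle replicate 1 or ERRα3SA muscle replicate 2. Mrpl12 was called without any 1 library, while Slirp lost the call without ERRα3SA muscle replicate 3 (0.81). Phb2 lost it without WT liver replicate 1 (0.43), ERRα3SA liver replicate 4 (0.39), WT muscle replicate 3 (0.47) or ERRα3SA muscle replicates 2 (0.42) or 3 (0.38). Samm50 lost it without WT liver replicates 1 (0.48) or 4 (0.47), ERRα3SA liver replicate 1 (0.54), WT muscle replicates 1 (0.53), 2 (0.53) or 3 (0.51), or ERRα3SA muscle replicates 2 (0.46) or 3 (0.45). Mtfp1 lost it without WT liver replicates 1 (0.39), 3 (0.46) or 4 (0.43), ERRα3SA liver replicates 2 (0.45) or 4 (0.41), any 1 of the 4 WT muscles (0.44, 0.46, 0.44 and 0.47), or ERRα3SA muscle replicates 2 (0.36) or 3 (0.33). With total counts alone Phb2 (0.48), Samm50 (0.52) and Mtfp1 (0.44) were not called, and of the genes called 3 were positive and 2 negative.

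Liver and skeletal muscle put mitochondria to different uses, and the WT tissues were compared for the 10 genes. Mfn2 stood highest per length in both tissues, at 134 ± 3.49 CPM per kb in muscle (SD, n = 4) and 27.0 ± 1.67 in liver. Mfn1 was second in that order in muscle, with 39.7 ± 1.75 CPM per kb against 10.3 ± 0.205. In CPM, Mfn2 had 146, 134, 149 and 131 in liver and 679, 694, 695 and 723 in muscle, and Mfn1 had 63.9, 62.5, 61.7 and 64.4 in liver and 233, 241, 238 and 258 in muscle. Each muscle lay far above each liver for both mitofusins. Mfn2 rose by 2.35 log2 units (SE 0.07, adjusted p = 6.48e-13) and Mfn1 by 1.98 (SE 0.06, adjusted p = 5.23e-13), from edgeR's quasi-likelihood test after Benjamini-Hochberg adjustment.

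The other genes of dynamics were also higher in muscle. Opa1 rose by 0.49 log2 units (SE 0.06), from 15.2 to 20.9 CPM per kb, and the fission gene Dnm1l by 0.72 (SE 0.06), from 10.8 to 17.5. Among the genes of mtDNA and its RNA, Tfb2m rose by 0.96 log2 units (SE 0.08), with 26.7, 24.0, 30.4 and 25.1 CPM in liver and 46.0, 53.7, 51.7 and 50.0 CPM in muscle, all muscles above all livers. Polg and Tfb1m were lower in muscle, Polg by a log2 fold change of -0.39 (SE 0.07) and Tfb1m by -0.34 (SE 0.11). Tfam was near level, with 44.8, 44.0, 45.8 and 45.1 CPM in liver and 43.7, 45.2, 41.9 and 40.1 CPM in muscle, and was not called (-0.04, SE 0.06, edgeR unadjusted p = 0.526; 0.10 with total counts alone).

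The regulators parted. Gabpa had 64.1, 61.7, 66.8 and 58.4 CPM in liver and 40.6, 39.2, 40.5 and 42.9 CPM in muscle, a log2 fold change of -0.59 (SE 0.06), while Nrf1 rose by 0.30 (SE 0.09), from 10.95, 8.88, 11.1 and 10.1 CPM to 12.4, 12.3, 12.5 and 12.4 CPM. Nrf1 was the lowest of the 10 per length in either tissue, at 0.998 and 1.21 CPM per kb of all exons, though with the longest transcript as length Tfb1m was the lower in muscle.

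Of the 10 genes, 9 were called between WT tissues, against 84.2% of the 14886 genes tested: 6 higher in muscle (42.0% of all genes) and 3 lower (42.2%). At an adjusted p under 0.05 it was also 9, against 86.5%, and groups did not overlap for 9 of the 10 and for 81.8% of all genes, so the count itself is near that of the genes at large. The median log2 fold change of the 10 was 0.40 beside 0.00 over all genes. Nrf1 lost the call without WT liver replicate 2 (0.22), and Tfb1m (-0.20) and Polg (-0.25) lost it with total counts alone, which moved the median of all genes by 0.137. In the wider lists 69 of 92 genes were called, 34 higher and 35 lower. Those with the smallest p were Tymp, a thymidine phosphorylase that acts on the nucleotide supply of mtDNA (-7.70), Prkaa2, a catalytic subunit of AMPK (2.24), Inf2 (-2.64), Tfeb (3.16) and Mff (1.92).

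**Figure D5:**
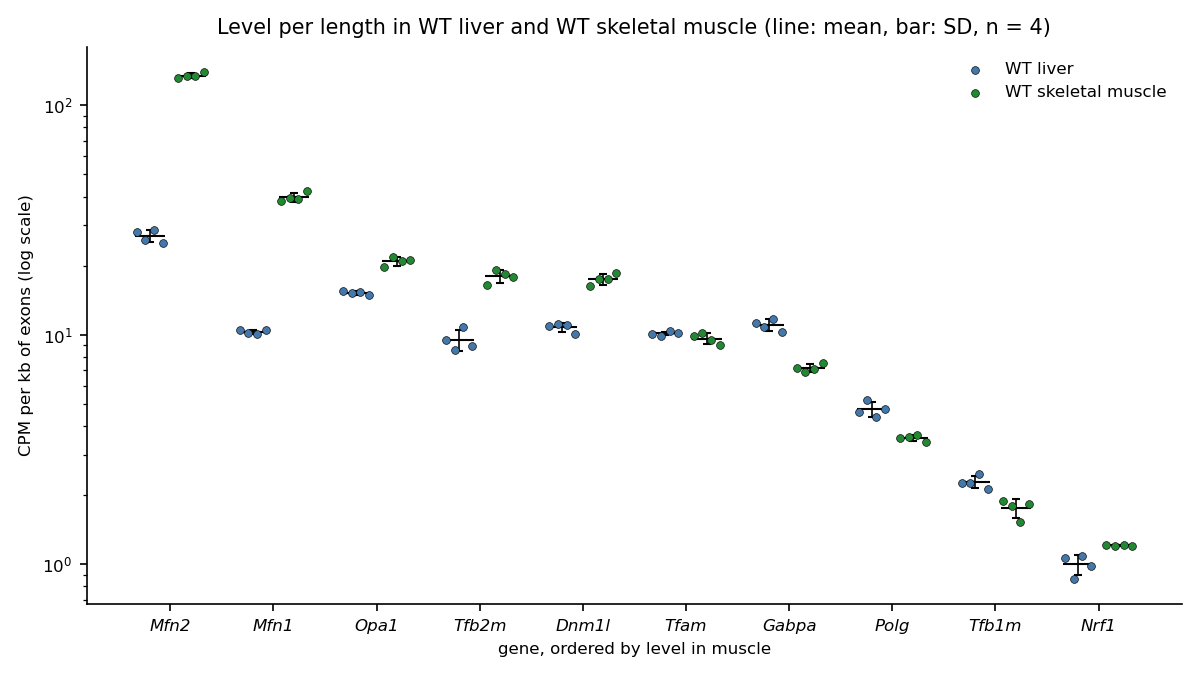
CPM per kb of exons on a log scale (y axis) for the 10 genes, ordered by level in muscle (x axis), in WT liver and WT skeletal muscle; points are single libraries, lines means and bars SD of 4. Mfn2 lies at 134 CPM per kb in muscle and 27.0 in liver, and Mfn1 at 39.7 and 10.3.

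The 10 genes did not move as 1 block from liver to liver. Over the 15 livers of the insulin experiment, the 45 pairs among them had Pearson r from -0.65 (Gabpa and Mfn1) to 0.54 (Tfb2m and Opa1), with a median of -0.02 and 22 pairs above 0. With each group centred on its mean the median was -0.05. These r describe 15 libraries that share groups and normalisation, and no p is given for them.

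Out of 14588 genes, those most like Mfn2 over the 15 livers were Ccdc85c (r = 0.86, Spearman rho 0.90) and the glycine transporter gene Slc6a9 (0.84, rho 0.72). Opa1 went most closely with Casp9, an initiator caspase (0.87, rho 0.89), and Kif16b (0.87, rho 0.83), and Mfn1 with the clock gene Cry1 (0.86, rho 0.83) and with Slc25a28, a mitochondrial iron carrier (0.85, rho 0.86). For Tfam they were Aggf1 (0.87, rho 0.64) and Sh3bp5l (0.86, rho 0.70), for Polg the kinase genes Tyk2 (0.89, rho 0.91) and Prkca (0.89, rho 0.91), for Tfb1m Fgfr1op2 (0.81, rho 0.72) and Cd46 (0.80, rho 0.74), and for Tfb2m Rap2b (0.85, rho 0.59) and Rps6ka5 (0.85, rho 0.65). Nrf1 was most like Slc19a3 (0.74, rho 0.80) and P2ry10 (0.74, rho 0.73), Dnm1l like Ppp2r5e (0.82, rho 0.83) and Mprip (0.82, rho 0.65), and Gabpa like Dclk2 (0.91, rho 0.59) and Map3k12 (0.91, rho 0.71). For Tfam, Tfb2m and Gabpa rho lay well below r in both genes, as it did for Dnm1l with Mprip. With each group centred on its mean, r was 0.72 for Ccdc85c and 0.73 for Slc6a9 with Mfn2. Centred r was 0.66 for Cry1 and 0.73 for Slc25a28 with Mfn1. For the other genes named it lay between 0.71 and 0.90. Each named gene is the top of a long search over 15 livers, so an r of this size need not mark a shared pattern.

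How reads were assigned by strand is not stated, so reads of genes that overlap on the opposite strand cannot be told apart from those of 4 of the 10. Of exon bases, 8.57% lie under Fanci for Polg, 6.98% under Atp5j for Gabpa, 4.67% under Gm49521 for Dnm1l and 3.93% under Tiam2 for Tfb1m. The exons of Mfn1, Mfn2, Opa1, Tfam, Tfb2m and Nrf1 overlap no other gene.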

How the data were processed

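Gene counts as deposited, from paired-end reads that STAR placed on mm10, were read for 31 libraries of 8 groups: 15 livers of the insulin experiment and 16 livers and muscles of the ERRα3SA experiment. The strand setting of the counting and the annotation release are not stated. Replicates were not merged: the closest 2 libraries of a group had a chi-square per degree of freedom of 6.30, so each was treated as its own sample. In R 4.3.3, each comparison was fitted on its own groups with edgeR 4.0.16 (filterByExpr, TMM normalisation, prior count 2, quasi-likelihood test, Benjamini-Hochberg adjustment over all genes tested), after a check on simulated data. The rule of the study, a fold of 1.2 or more with an unadjusted p under 0.05, decided which genes were called. Interactions were fitted over 4 groups. DESeq2 1.42.0, DESeq2 size factors, scaling by total counts alone, no filter, a replicate block, all 4 groups fitted at once, mitochondrial genome genes left out, and each library left out in turn were tried as alternatives. The 10 genes and the wider lists were chosen with earlier results of these data known. Named are all 10 genes in each comparison, Esrra as label check, and the called genes of the wider lists with the 5 smallest unadjusted p. Also named are the 2 genes with the highest r to each of the 10 over 15 livers, predicted genes left out.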

Additional observations from a re-analysis of the deposited data

Results flagged for a closer look

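In groups of 4, a library was picked out when it lay far from the other 3 for the spread of its group, a rule by which chance picks out about 1 in 20 groups; 91 groups were looked at and 10 had such a library. For the 10 genes and Esrra this was so in 6 of 77 groups: Nrf1 in ERRα KO liver with saline replicate 3 (12.9 CPM, the others 10.8 to 11.1), Esrra in WT liver with insulin replicate 2 (96.5 CPM, the others 53.7 to 59.0), Nrf1 (13.4 CPM, the others 11.3 to 11.6), Gabpa (73.4 CPM, the others 37.2 to 39.9) and Dnm1l (154 CPM, the others 74.6 to 81.5) in ERRα3SA muscle replicate 1, and Mfn2 in ERRα3SA muscle replicate 4 (551 CPM, the others 709 to 721). The share of counts on genes of the mitochondrial genome stood apart in ERRα KO liver with saline replicate 3 (3.91%), WT liver with insulin replicate 2 (1.88%) and ERRα3SA muscle replicate 1 (19.3%), and total counts did in ERRα3SA liver replicate 4 (20481405).

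Of the 10 genes none had a called interaction by edgeR's quasi-likelihood test (0 at an unadjusted p under 0.05, 0 by DESeq2). Among the genes named from the wider lists, the interaction of genotype and insulin passed an unadjusted p under 0.05 for Phb2 (-0.41 log2 units), Mtfp1 (-0.81) and Esrra (-1.65), with adjusted p of 0.515, 0.519 and 0.422 (edgeR, Benjamini-Hochberg). Esrra is the deleted gene and had 11 to 62 counts in KO livers, so its value says nothing of a response to insulin there. These are 3 of 91 genes tested, beside 8.79% of all genes. The interaction of the ERRα3SA mutation and tissue did so for Mrpl12 (0.84), Slirp (1.10), Phb2 (0.47), Samm50 (0.52) and Mtfp1 (0.44), with adjusted p between 0.771 and 0.887 (edgeR, Benjamini-Hochberg); these are 5 of 92 genes, beside 5.57% of all genes.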

How the results depend on the processing

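For single values of the 10 genes, 831 of 850 were on the same side of the threshold when 1 library was left out (15 newly called, 4 no longer called), as were 604 of 610 under the other alternatives (3 and 3); none changed direction while called. Scaling by total counts alone gave 2 of the 10 genes called for ERRα KO against WT liver after saline (in place of 1), 1 after insulin (0), and in the wider lists 7 for genotype by insulin (3) and 3 for ERRα3SA muscle (7). It also moved the share of called genes that were higher from 46.8 to 32.0% for insulin in KO liver, 45.7 to 19.8% for KO against WT after insulin, 45.9 to 25.7% for genotype by insulin, 61.3 to 33.5% for ERRα3SA muscle and 56.8 to 42.7% for genotype by tissue; the cause was not tested. Without the filter 1050 genes were called in ERRα3SA liver (651) and 1071 in ERRα3SA muscle (639), with 4 of the wider lists (7). With all 4 groups fitted at once these were 1013 and 3 in ERRα3SA muscle. A replicate block gave 14 wider-list genes for insulin in KO liver (9), 1 wider-list gene and 334 genes in ERRα3SA muscle, and 3 for genotype by tissue (5), while replicate numbers paired libraries in 0 of 7 comparisons. Leaving out 1 library, the 10 genes had 0 to 1 calls for insulin in WT liver, 0 to 3 in KO liver, 1 to 2 for KO against WT after saline, 0 to 1 after insulin, 0 to 1 for genotype by insulin, 0 to 1 in ERRα3SA muscle, 0 to 2 for genotype by tissue and 8 to 9 between WT tissues. In the same order, with ERRα3SA liver before muscle, the wider lists had 10 to 24, 7 to 15, 12 to 17, 11 to 24, 3 to 6, 1 to 6, 2 to 18, 1 to 15 and 67 to 70, and all genes 1796 to 2511, 1729 to 2480, 1284 to 1984, 818 to 1778, 886 to 1569, 507 to 892, 378 to 2506, 710 to 2766 and 12609 to 12772.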
